A study of Mus musculus with 15 samples.

Results

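Interferon-stimulated genes are the genes that cells switch on in answer to interferons. Their levels were measured in whole mouse kidney. A named list of 36 such genes was used, chosen by name with earlier results of these arrays in view, among them that 1 array, HFD-UNX_1, stood out for single genes. A probe matched to RefSeq was found for 34 of the 36, and these 34 were all measured, out of 16055 genes tested. Mx1 and Mx2 were not analysed here. Each gene was represented by its brightest probe, selected on mean signal over all arrays. The standing of HFD-UNX_1 was therefore known when the list was drawn up, and its values are given below as a description with no test.

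Type I interferons bind a receptor made of Ifnar1 and Ifnar2, and the kinases Jak1 and Tyk2 then phosphorylate proteins of the Stat family. With Irf9 these form a complex that enters the nucleus and binds a DNA element, the interferon-stimulated response element (ISRE), near the start of many of the genes described here. Type II interferon has its own receptor, acts through a different element, the gamma-activated site (GAS), and favours genes such as Irf1 and the interferon-inducible GTPases. The products sense foreign nucleic acid, block viral RNA and protein synthesis, and load peptides for T cells, and in the kidney both resident epithelium and immune cells can make them.

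The samples were kidneys of male mice of a strain written C57/BJ. At 6 weeks of age they had the left kidney removed (uninephrectomy, UNX) or a sham operation in which the kidney was handled and left in place. They were fed a high-fat diet (HFD) or the control chow, called low fat in the labels (LFD), and killed 20 weeks after surgery. Each group had 6 mice, of which 4 LFD-sham, 4 LFD-UNX, 3 HFD-sham and 4 HFD-UNX kidneys were hybridised to 1-colour Agilent arrays, 1 mouse to an array as the labels number them. No genotype or transgene was used in any group, and LFD-sham is the untreated control of the design. Because the tissue is whole kidney, fewer cells of a type and less RNA per cell cannot be told apart.

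All levels below are normalised log2 signals: log2 of the background-subtracted spot signal minus the 75th percentile of the same array, so that 0 is that percentile and 1 unit is a doubling. Levels of different genes come from different probes and are not set against each other. Between 60.5% and 73.4% of spots were well above background on each array, no spot was saturated, and the number of arrays limits the precision. The low-fat arrays lay on slides 3 (sham) and 4 (UNX), scanned on another day than the high-fat arrays, which lay on slide 1 (HFD-sham_1, HFD-UNX_1 and HFD-UNX_2) and slide 2 (HFD-sham_2, HFD-sham_3, HFD-UNX_3 and HFD-UNX_4). Diet and scan day, and surgery and slide on the low-fat diet, cannot be told apart. All 8 listed kidney epithelial markers, from Slc34a1 of the proximal tubule to Nphs1 of the podocyte, were well above background on all 15 arrays. Of the members, 33 were well above background on all 15 arrays and Oas3 on 13.

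The members' levels were dominated by 1 mouse. HFD-UNX_1 held the highest value of all 15 arrays for 31 of the 34 members, or 91.2%, while 6.76% of all genes tested had their highest value there. The 3 exceptions, Irf1, Igtp and Iigp1, were highest on HFD-sham_3. Averaged over the members, HFD-UNX_1 lay 1.25 log2 units above the mean of the other 14 arrays. The other arrays lay between -0.31 (HFD-UNX_4, the lowest array for 13 members) and 0.24 (HFD-sham_1) on the same measure. In its own group HFD-UNX_2 and HFD-UNX_3 lay at 0.10 and -0.02, so the group held both the array with the highest and the array with the lowest average.

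**Figure D1:**
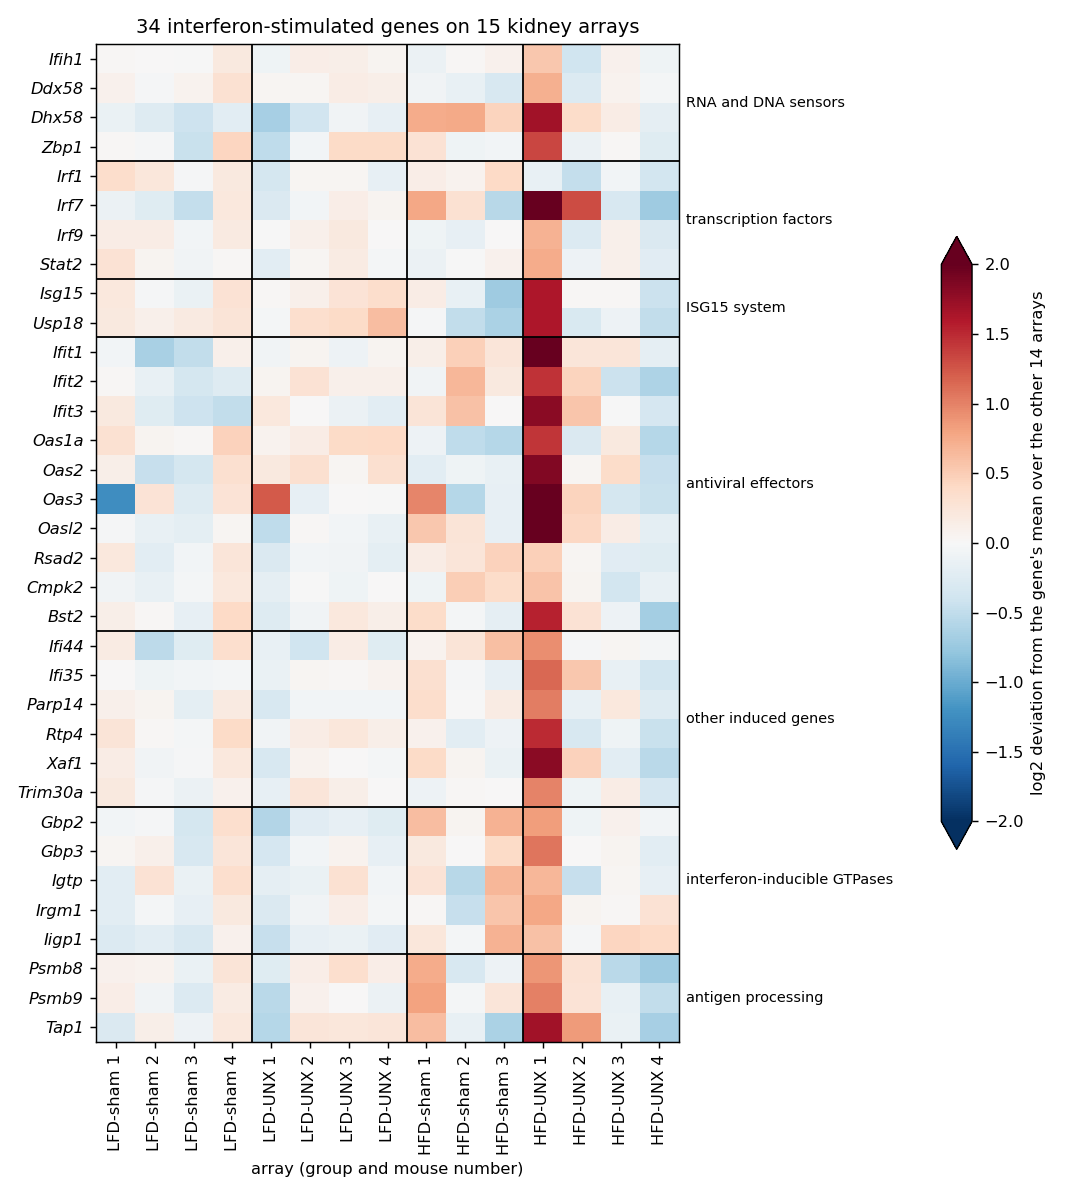
Heat map of the 34 measured members (rows, by role) on the 15 arrays (columns, by group and mouse number); colour gives the log2 deviation from the gene's mean over the 14 arrays other than HFD-UNX_1, clipped at the ends of the scale. The column of HFD-UNX_1 is red for 33 members and pale blue for Irf1, and the antigen-processing genes are also red on HFD-sham_1 and HFD-UNX_2.

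The share of members that were highest on HFD-UNX_1 was unlike the share on any other array. HFD-sham_3 was highest for 3 members (8.82%), and the remaining 13 arrays were highest for none of them. Over all genes the array most often highest was HFD-sham_3, with 13% of genes. HFD-UNX_1 was the lowest array for 9.47% of all genes, and the other arrays for 2.32% (LFD-UNX_3) to 15.2% (HFD-sham_3).

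**Figure D2:**
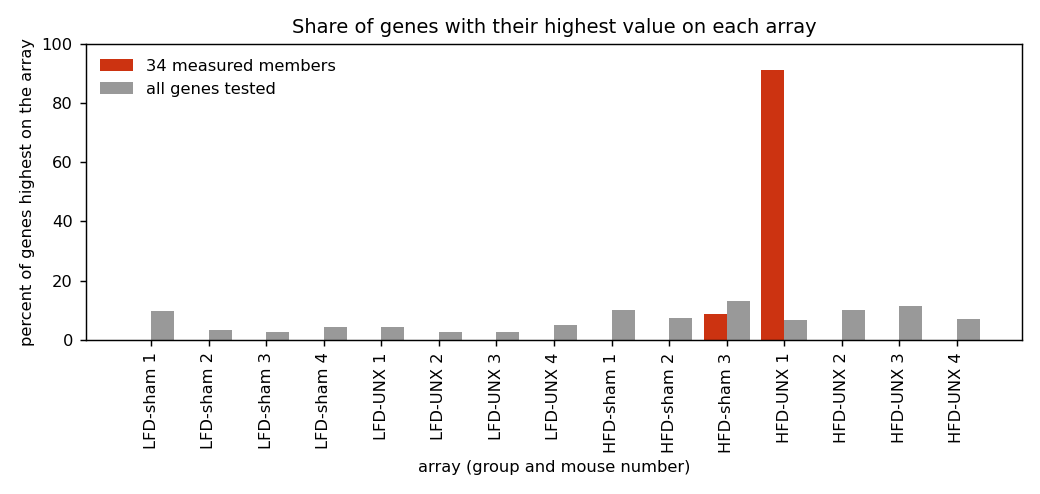
Bars give, for each array, the percent of the 34 measured members (red) and of all genes tested (grey) that had their highest value on it. Red bars stand at 91.2% on HFD-UNX_1 and 8.82% on HFD-sham_3 and at 0 elsewhere, while the grey bars run from 2.54% to 13%.

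A wide gap between HFD-UNX_1 and all other arrays was mostly a matter of these genes. Only 19 of all genes tested, or 0.118%, had HFD-UNX_1 at least 1 log2 unit above every other array, and 11 of the 19 were members: Irf7, Ifit1, Oas2, Oasl2, Xaf1, Isg15, Oas3, Ifit3, Bst2, Rtp4 and Usp18. Another 5 were on the wider list of interferon-stimulated genes (Apol9b, Apol9a, Oasl1, Slfn2 and Ifi27). The last 3 were Ifit3b, a near-identical relative of Ifit3, Siglec1, a sialic-acid receptor of macrophages, and Ttll9. The same gap was met by 4 to 61 genes on each of the other 14 arrays, and no member was among them.

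Among the 4 sensors of foreign RNA and DNA, Dhx58, which encodes LGP2, a helper of the RNA sensors, varied most. Its level was -3.32, -3.44, -3.59 and -3.40 on the LFD-sham arrays and -3.84, -3.56, -3.25 and -3.35 on the LFD-UNX arrays. It was -2.44, -2.42 and -2.74 on the HFD-sham arrays and -1.51, -2.82, -3.03 and -3.37 on the HFD-UNX arrays. The 3 HFD-sham arrays lay above all 8 low-fat arrays, whereas the HFD-UNX arrays ran from the low-fat range to the highest value of all. On HFD-UNX_1 Dhx58 was 3.54-fold above the median of the other 14 arrays. Zbp1, a sensor of left-handed nucleic acid, was 2.6-fold above that median there, Ddx58, which encodes RIG-I, 1.59-fold, and Ifih1, which encodes MDA5, 1.43-fold. Ifih1 was thus among the members that differed least on that array, and it had the smallest spread of all members, an SD of 0.20 over 15 arrays.

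Of the transcription factors, Irf7, the factor that amplifies type I interferon production, had the largest spread of any member, an SD of 1.03 over 15 arrays. Its level was -1.94, -2.07, -2.31 and -1.61 on the LFD-sham arrays and -2.11, -1.88, -1.70 and -1.78 on the LFD-UNX arrays. On the HFD-sham arrays it was -1.06, -1.53 and -2.39. On the HFD-UNX arrays it was 1.62, -0.52, -2.15 and -2.54. HFD-UNX_1 was 11.5-fold above the median of the others, and the next highest arrays, HFD-UNX_2 and HFD-sham_1, shared its slide. The lowest array of all 15, HFD-UNX_4, lay in the same group. Without HFD-UNX_1 the SD of Irf7 fell to 0.54. Over the same 14 arrays the SD was 0.63 for Oas3, 0.45 for Tap1 and 0.29 for Isg15.

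The other transcription factors moved much less. Irf9 and Stat2, both parts of the complex that binds the ISRE, were 1.62-fold and 1.65-fold above the median of the other arrays on HFD-UNX_1. Irf1, a factor that responds mainly to type II interferon, did not stand out on HFD-UNX_1, at 0.878-fold the median of the other arrays and within their range. It read 1.45 on HFD-UNX_1 against 1.12, 1.55 and 1.23 on the other HFD-UNX arrays. The HFD-sham arrays stood higher, at 1.73, 1.66 and 1.99, and did not overlap with HFD-UNX. Of all genes 1.23% were lower after uninephrectomy on that diet without overlap. The low-fat arrays spanned 1.24 to 1.95.

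The ISG15 system is a small protein tag and its removal. Isg15, the tag, stood at 2.72 on HFD-UNX_1 and between 0.39 and 1.46 on the other arrays, 3.02-fold above their median. Usp18, the protease that removes the tag and also damps the interferon receptor, stood at 0.04 on HFD-UNX_1 and between -2.21 and -0.97 elsewhere. Among the other arrays Usp18 read -1.60, -2.07 and -2.21 on HFD-sham and -1.89, -1.68 and -2.08 on HFD-UNX_2 to HFD-UNX_4, against -1.62 to -0.97 on the 8 low-fat arrays. The high-fat values lay at the lower end, and the 2 sets overlapped only through HFD-sham_1 and LFD-UNX_1.

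The antiviral effectors, which act on viral RNA or hold back virus particles, were together 1.56 log2 units above the mean of the other arrays on HFD-UNX_1. Ifit1, which binds RNA without the host cap, read -2.95, -3.54, -3.38 and -2.79 on LFD-sham and -2.97, -2.84, -2.99 and -2.84 on LFD-UNX. On HFD-sham it read -2.77, -2.42 and -2.65, and on HFD-UNX -0.89, -2.66, -2.66 and -3.07. The 14 other arrays lay between -3.54 and -2.42, and HFD-UNX_1 lay 1.53 log2 units above the highest of them. Ifit3, a partner of Ifit1, read 0.72, 0.28, 0.10 and 0.03 on LFD-sham and 0.73, 0.53, 0.40 and 0.31 on LFD-UNX. It read 0.78, 1.11 and 0.52 on HFD-sham and 2.32, 1.07, 0.51 and 0.18 on HFD-UNX. Its values therefore overlapped across all 4 groups once HFD-UNX_1 was set aside. Probes for Ifit3 may also read Ifit3b, so the share of each is uncertain.

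The 2'-5' oligoadenylate synthetases make the signal that turns on RNase L. Oasl2, their relative, read -0.34, -0.47, -0.51 and -0.28 on LFD-sham and -0.82, -0.29, -0.37 and -0.46 on LFD-UNX. It read 0.22, -0.06 and -0.49 on HFD-sham and 1.69, 0.09, -0.17 and -0.51 on HFD-UNX. HFD-UNX_1 was again apart, 4.13-fold above the median of the others, and the other high-fat arrays ran from within the low-fat range to just above it. The same array was 5.9-fold above the median of the others for Oas3, 3.51-fold for Oas2 and 2.56-fold for Oas1a. Oas3 was dim: 2 arrays were not well above background, its other arrays spanned -6.52 to -4.06, and the Oas1a probe may also detect near-identical copies of the Oas1 family.

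On their brightest probes the remaining effectors showed that the excess was not uniform. Bst2, which tethers virus particles to the cell surface, was 2.93-fold above the median of the others on HFD-UNX_1 and Ifit2 2.66-fold. Cmpk2, a mitochondrial nucleotide kinase, and its neighbour Rsad2, which makes a chain-terminating nucleotide, were 1.54-fold and 1.45-fold above. For Rsad2, HFD-UNX_1 (0.93) exceeded HFD-sham_3 (0.92) by only 0.01, and for Cmpk2 it exceeded HFD-sham_2 by 0.07. The small excess of Cmpk2 depended on the probe. Its second probe read 0.12 on HFD-UNX_1 and -2.60 to -0.57 elsewhere, 1.59 log2 units above the median of the others.

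Some of the members carry the core of the response element beside their start, and the stretches are shown so that its letters and place can be read in those that do. RefSeq promoter windows of build GRCm38.p6, from 250 bases before to 50 bases after a start, were found for 27 of the 34 measured members, in 32 windows. The core of the ISRE, searched as GAAANNGAA on both strands, was present in 17 of the 32 windows (53.1%), belonging to 16 genes, and in 8.56% of all 32851 windows. The GAS, searched as TTCNNNGAA, which is its own reverse complement, was present in 7 windows (21.9%) and in 8.3% of all windows. In 3 windows both were found, and in 1 their matches overlapped. A match is a run of letters and not a measured binding site. The 200 bases before the start are given for the 6 members with an ISRE core and the largest spread over arrays, each 5′ to 3′ on the strand of its gene. Capitals mark ISRE cores, which read as TTC runs where the core lies on the opposite strand.
Oas3 (chr5:120777660-120777859, minus strand): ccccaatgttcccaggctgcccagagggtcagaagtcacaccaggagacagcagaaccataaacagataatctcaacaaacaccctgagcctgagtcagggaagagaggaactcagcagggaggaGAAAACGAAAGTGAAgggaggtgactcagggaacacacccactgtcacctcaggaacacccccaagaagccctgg
Ifit1 (chr19:34640689-34640888, plus strand): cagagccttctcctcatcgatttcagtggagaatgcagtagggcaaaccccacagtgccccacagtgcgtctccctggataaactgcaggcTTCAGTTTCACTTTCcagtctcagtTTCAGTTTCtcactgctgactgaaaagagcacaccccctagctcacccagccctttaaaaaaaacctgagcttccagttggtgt
Ifit3 (chr19:34583329-34583528, plus strand): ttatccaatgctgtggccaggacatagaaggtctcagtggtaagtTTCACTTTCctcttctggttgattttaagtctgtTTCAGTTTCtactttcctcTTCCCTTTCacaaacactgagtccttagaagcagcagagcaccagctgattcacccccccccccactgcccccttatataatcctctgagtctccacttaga
Oas1a (chr5:120907526-120907725, minus strand): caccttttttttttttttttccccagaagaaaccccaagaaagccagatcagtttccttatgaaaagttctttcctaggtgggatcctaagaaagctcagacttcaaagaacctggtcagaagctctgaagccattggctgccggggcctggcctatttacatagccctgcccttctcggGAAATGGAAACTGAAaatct
Isg15 (chr4:156200819-156201018, minus strand): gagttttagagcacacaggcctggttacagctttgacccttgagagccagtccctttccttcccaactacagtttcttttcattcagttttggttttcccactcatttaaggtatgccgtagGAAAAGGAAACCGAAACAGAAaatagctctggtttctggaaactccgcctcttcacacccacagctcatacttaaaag
Bst2 (chr8:71537473-71537672, minus strand): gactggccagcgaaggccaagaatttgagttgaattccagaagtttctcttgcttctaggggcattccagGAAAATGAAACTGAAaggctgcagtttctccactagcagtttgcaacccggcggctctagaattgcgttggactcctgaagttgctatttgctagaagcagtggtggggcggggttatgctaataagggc
In Isg15 and Ifit3 the stretch holds 3 matches, as it does in Ifit1, and in Oas3, Oas1a and Bst2 it holds 2. The windows of Irf7, the member of widest spread, and of Tap1, Oasl2 and Xaf1 held no match to either motif.

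Of the 6 other induced genes, all were highest on HFD-UNX_1. Xaf1, a partner of the apoptosis inhibitor XIAP, stood at 0.77 there and between -1.56 and -0.57 elsewhere. Rtp4, a chaperone of membrane receptors, stood at 1.74 against -0.20 to 0.63. Ifi35 was 2.26-fold, Parp14, an ADP-ribosyltransferase, 2.07-fold, Trim30a 1.97-fold and Ifi44 1.9-fold above the median of the others. Ifi35 separated the high-fat arrays in a second way, with HFD-UNX_2 at 0.50 and HFD-sham_1 at 0.29 as the next highest arrays, both on slide 1.

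The interferon-inducible GTPases, which attack the compartments of intracellular parasites and bacteria, stood out least on HFD-UNX_1 when read from the brightest probes. Their mean there was 0.78 log2 units above the mean of the other arrays, and HFD-sham_3 reached 0.60. Gbp3 was 2.07-fold and Gbp2 1.85-fold above the median of the others on HFD-UNX_1, and Igtp and Irgm1 each 1.7-fold. Second probes of Irgm1 and Iigp1 lay 1.80 and 1.24 log2 units above that median there, against 0.77 and 0.68 for their brightest probes. For Igtp, HFD-UNX_1 and HFD-sham_3 both read 1.80. Iigp1 read -1.34, -1.29, -1.40 and -0.98 on LFD-sham and -1.53, -1.23, -1.20 and -1.30 on LFD-UNX. It read -0.85, -1.12 and -0.38 on HFD-sham and -0.48, -1.10, -0.64 and -0.67 on HFD-UNX. The 4 HFD-UNX arrays lay above all 4 LFD-UNX arrays, while LFD-sham_4 lay above HFD-sham_2.

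Antigen processing is the cutting of proteins by the immunoproteasome subunits Psmb8 and Psmb9 and the transport of peptides by Tap1. Tap1 read -3.30, -2.90, -3.12 and -2.81 on LFD-sham and -3.58, -2.77, -2.78 and -2.77 on LFD-UNX. It read -2.39, -3.16 and -3.64 on HFD-sham and -1.34, -2.16, -3.14 and -3.67 on HFD-UNX. The highest 3 arrays were the 3 of slide 1, and the lowest, HFD-UNX_4, belonged to the same group as the highest. Psmb8 and Psmb9 were 1.73-fold and 2.03-fold above the median of the others on HFD-UNX_1, but HFD-sham_1, at 1.29 and 1.43, came within 0.13 and 0.20 of it.

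**Figure D3:**
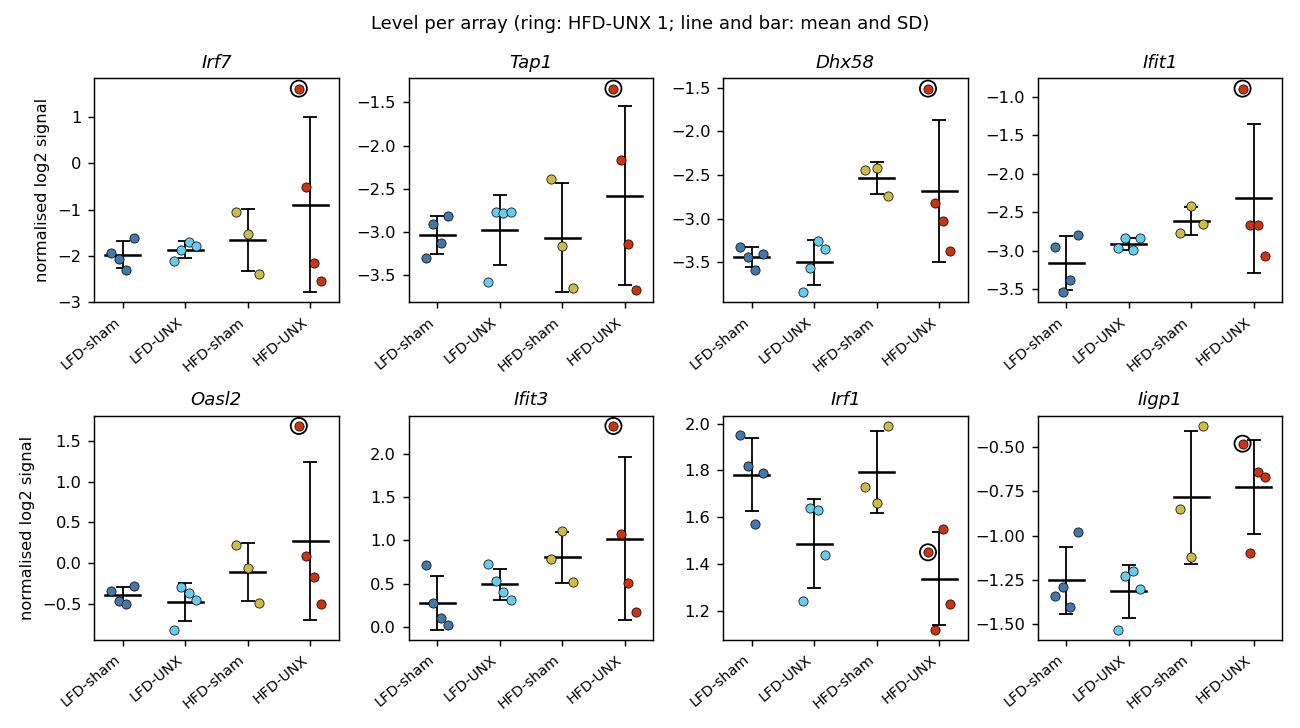
Each panel gives the normalised log2 signal of 1 gene on every array by group; lines and bars are the group mean and SD, and the ring marks HFD-UNX_1. In Irf7, Tap1, Dhx58, Ifit1, Oasl2 and Ifit3 the ringed point is the highest of all, in Irf1 it is not, and in Iigp1 the high-fat arrays lie mostly above the low-fat ones.

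Second probes were mostly highest on HFD-UNX_1 too. A further probe above the filter was present for 9 members, and HFD-UNX_1 was the highest array for 8 of these 9 probes. The second Isg15 probe read -0.18 there and -2.99 to -1.83 elsewhere, and the second Oas1a probe 0.29 against -2.31 to -1.23. The second Iigp1 probe, unlike the first, was also highest on HFD-UNX_1. The exception was the second Ddx58 probe, which was highest on HFD-sham_3. For the diet difference the probes had the same sign in 6 of the 9 genes in sham mice and in 8 of the 9 in mice with 1 kidney. In sham mice the probes of Ddx58 read -0.29 and 0.65, those of Oas1a -0.61 and 0.21, and those of Isg15 -0.32 and 0.34, opposite in sign.

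Whether diet changed the members was asked separately in sham mice and in mice with 1 kidney, with limma on all genes and a Benjamini-Hochberg adjusted p under 0.05. In sham mice no member passed, while 6.82% of all genes passed as higher and 6.99% as lower on the high-fat diet. The median difference of the members was 0.07 log2 units and that of all genes -0.01. Unadjusted p was under 0.05 for 2 members and for 4835 of all genes. Dhx58 came nearest, from -3.44 ± 0.11 (SD, n = 4) to -2.54 ± 0.18 (SD, n = 3), a difference of 0.90 (SE 0.32, limma adjusted p = 0.0754). Without HFD-UNX_1, which enters this comparison only through the shared estimate of spread, its adjusted p was 0.00617, and Dhx58 alone of the members then passed, beside 13.5% of all genes in either direction. With only the 7 sham arrays in the fit it again passed alone (adjusted p = 0.0243), beside 7.36% of all genes.

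The values in sham mice seldom separated by diet. High-fat arrays lay above all low-fat arrays for 2 members, Dhx58 and Ifit1, which is 2 of 34 against 11.5% of all genes. They lay below for 3 members, Ddx58, Usp18 and Oas1a, against 14.6% of all genes. Both shares were under the background.

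In mice with 1 kidney Iigp1 was the only member that passed, and it rose. Its mean went from -1.32 ± 0.15 (SD, n = 4) on low fat to -0.72 ± 0.27 (SD, n = 4) on high fat, a 1.51-fold difference (0.60 log2 units, SE 0.17, limma adjusted p = 0.0358). Of all genes 7.89% passed as higher and 6.11% as lower, so 1 of 34 is a smaller share than the background. Unadjusted p was under 0.05 for 4 members and for 4729 of all genes. The second Iigp1 probe differed by 0.50. The call was lost without HFD-UNX_1 (0.51, adjusted p = 0.101), HFD-UNX_3, HFD-UNX_4 or any 1 of the 4 LFD-UNX arrays, with adjusted p from 0.0526 to 0.106. A random block for slide gave it an adjusted p of 0.416, and 0.174% of all genes then passed in either direction. The non-overlap of the groups was shared by Gbp2 and Iigp1 only, against 11.9% of all genes in that direction, and no member lay lower without overlap, against 10.7%.

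The diet difference in mice with 1 kidney turned on HFD-UNX_1. With it 28 members were higher on the high-fat diet, with a median of 0.25, and without it 14 were higher and 20 lower, with a median of -0.08. Irf7 fell from a difference of 0.97 to 0.13, Oasl2 from 0.76 to 0.29 and Dhx58 from 0.82 to 0.43. Usp18 changed from -0.15 to -0.63 and was then the only member to pass, as lower (limma adjusted p = 0.0412), while 9.33% of all genes passed in either direction in that fit. The 2 diet comparisons share no arrays, but both rest on the same scan days.

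No member passed the test of surgery on either diet. On the low-fat diet none of the 34 did with limma, and 0.00623% of all genes did, which is 1 gene. Ifit2 alone of the members was higher after uninephrectomy there without overlap, against 2.57% of all genes. The members' median difference was -0.03, with Oas3 the highest at 0.50 (SE 0.59) and Irf1 the lowest at -0.29 (SE 0.14), and no member but 517 of all genes had an unadjusted p under 0.05. On the high-fat diet none passed and 0% of all genes did, with 746 of all genes and 1 member at an unadjusted p under 0.05. That member was Irf1, at 1.79 ± 0.17 (SD, n = 3) after sham and 1.34 ± 0.20 (SD, n = 4) after uninephrectomy, a difference of -0.45 (SE 0.15, limma adjusted p = 0.999). The interaction of surgery and diet passed for no member and for 0% of all genes, with 215 genes and no member at an unadjusted p under 0.05.

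HFD-UNX_1 also set the sign of the surgery difference on the high-fat diet. With it 24 of 34 members were higher after uninephrectomy, with a median of 0.20, and Irf7 differed by 0.76 (SE 0.71). Without it 27 were lower, the median was -0.19, and Irf7 differed by -0.08 (SE 0.44). No member passed either way.

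**Figure D4:**
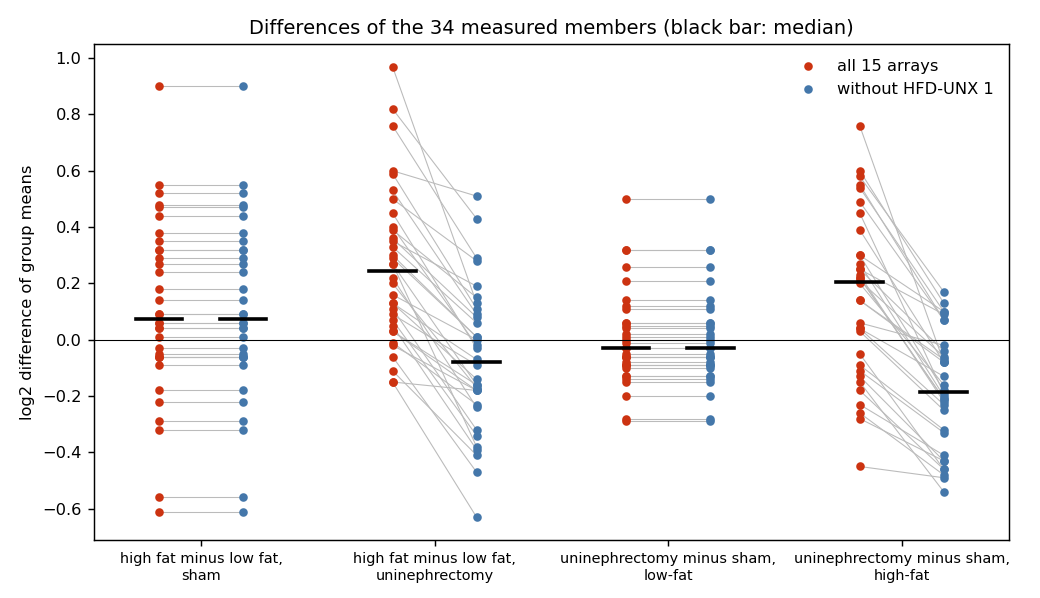
Points give each of the 34 measured members' log2 difference of group means in 4 comparisons, from all 15 arrays (red) and without HFD-UNX_1 (blue), with lines joining the same gene and black bars at the medians. The medians stay at 0.07 and -0.03 where HFD-UNX_1 is in neither group and move from 0.25 to -0.08 and from 0.20 to -0.19 where it is.

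The high-fat arrays also differed by slide. On 10 members (Irf7, Isg15, Oas3, Oasl2, Bst2, Ifi35, Xaf1, Psmb8, Psmb9 and Tap1) all 3 arrays of slide 1 lay above all 4 of slide 2, and this held for 15.1% of all genes. Leaving out HFD-UNX_1 cannot undo such a separation, so that the same 10 members kept it carries no information. In that set 16.9% of all genes lay above. Below lay 1 member and 18% of all genes. The median difference between the slides over the 34 members was 0.61 with HFD-UNX_1 and 0.09 without it. Within slide 1, mice with 1 kidney were higher than the sham mouse by a median of 0.41, and by -0.16 without HFD-UNX_1. Within slide 2 the median was -0.12. The part of the slide in the level of HFD-UNX_1 was not tested.

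Outside the members, the interferon pathway was read from lists of ligands, receptors, signalling proteins, regulators and further targets, 103 genes of which 93 were measured. None of the 6 receptor genes was highest on HFD-UNX_1. Ifnar1 read -0.22 there, under its range of -0.17 to 0.84 on the other arrays. Ifngr1 read 1.48 there, just under its range of 1.51 to 1.84. None of the 6 measured interferon genes was highest there either, and 1 of these, Ifnl3, was well above background on all arrays. Of the 4 Jak and Stat genes only Tyk2 was highest on HFD-UNX_1, 1.84-fold above the median of the others. Jak1 read 2.29 there, under its range of 2.39 to 2.79 on the other arrays. Of 11 inducers of interferon only the adaptor Myd88 was highest there, and of 9 negative regulators only Adar. The interferon-induced chemokines Cxcl9, Cxcl10 and Ccl5 were all highest on HFD-sham_1.

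Most of the further targets were highest on HFD-UNX_1 too. Of 42 other interferon-stimulated genes 28 were highest there, with a median of 0.82 log2 units above the other arrays' median. The 4 furthest above, named after their values were seen, were as follows. Lgals9, a galectin, was 5.23-fold, Sp100, a nuclear body protein, 4.96-fold, Apol9b 4.83-fold and Slfn2 4.45-fold above that median. The next highest array lay nearer for some of them. Lgals9 read 0.82 on HFD-UNX_1 and at most 0.14 elsewhere, and Sp100 -1.52 and at most -2.16. Apol9b read 1.57 and at most -0.21, and Slfn2 0.56 and at most -0.55. Apol9a and Apol9b are near-identical, and their split is uncertain. Of 10 other genes of the MHC class I pathway 6 were highest there, among them H2-D1 (1.99-fold) and B2m (1.84-fold), the heavy and light chains, while Tap2 and H2-K1 were highest on HFD-UNX_3. H2-D1 read 4.93 on HFD-UNX_1 and at most 4.64 elsewhere, and B2m 4.82 and at most 4.67. The B2m means were 4.54 on HFD-sham and 4.59 on HFD-UNX, against 3.78 on LFD-sham and 3.68 on LFD-UNX. H2-T23, counted among the 6, read 5.21 both on HFD-UNX_1 and on the next highest array.

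**Figure D5:**
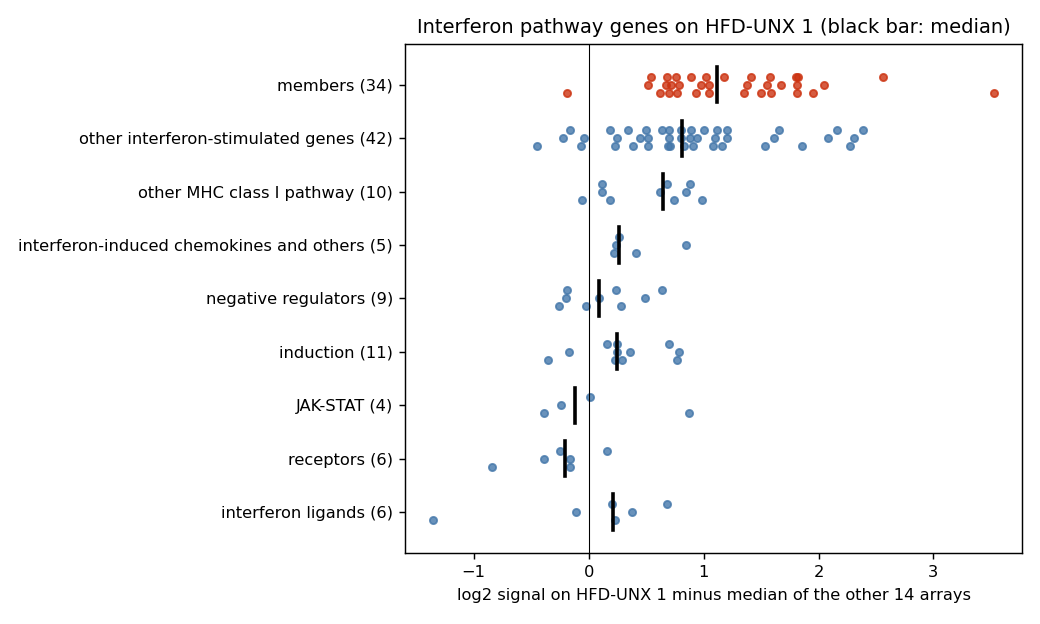
Each point is 1 gene, placed by its log2 signal on HFD-UNX_1 minus its median over the other 14 arrays; rows are the gene lists with the number measured, red the members, and black bars the medians. The targets lie to the right, with a median of 0.82 for the other interferon-stimulated genes, while the receptors have a median of -0.20 and the Jak and Stat genes -0.12.

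Diet calls among these pathway genes fell on both sides. In sham mice 7 of the 93 passed as higher and 5 as lower, and in mice with 1 kidney 9 and 5, beside 6.82% and 6.99%, and 7.89% and 6.11%, of all genes. The receptor chain Ifnar1 was lower on the high-fat diet by 0.65 (SE 0.17, limma adjusted p = 0.0214) in sham mice and by 0.62 (SE 0.15, adjusted p = 0.0182) in mice with 1 kidney. Without HFD-UNX_1 the latter missed the threshold (adjusted p = 0.0555). Stat3 was lower by 0.61 and 0.51, and Irf3, the factor that starts interferon production, by 0.45 and 0.38, the latter missing the threshold without HFD-UNX_1 (adjusted p = 0.0587). Tlr7, a receptor for single-stranded RNA, was higher by 0.93 and 0.76, and B2m by 0.77 and 0.91. Among the further targets Parp9 was higher by 0.48 and 0.64 and Trim25 lower by 0.67 and 0.51, and all of these passed in both comparisons with all arrays. Ifna1 and Ifna5, dim and near-identical within their family, were higher in both. Of the other interferon genes 2 passed in sham mice only, in opposite directions. Ifna2 differed by 0.64 (SE 0.15, limma adjusted p = 0.0154) and Ifnk by -2.05 (SE 0.57, limma adjusted p = 0.0306). Both were dim, with Ifna2 well above background on 10 arrays and Ifnk on 8. With all arrays Tlr3 passed in sham mice only, higher by 1.60 (SE 0.36, limma adjusted p = 0.0123), and was well above background on 11 arrays. In mice with 1 kidney only, Sp110 differed by 0.85, Pias1 by 0.53, Ciita by 1.11, Ifitm2 by 0.88 and Ifngr2 by -0.47. Ciita was dim, well above background on 8 arrays, and Ifitm2 missed the threshold without HFD-UNX_1 (limma adjusted p = 0.0959). No pathway gene passed for surgery or the interaction. A random block for slide left 0.0872% and 0.174% of all genes past the threshold for diet.

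Markers of immune and other cells moved with HFD-UNX_1 in part. Of 51 measured markers 11 were highest there, against 6.76% of all genes tested. The 11 markers were 2 of 4 B cell markers (Cd79a and Cd79b), 3 of 7 macrophage markers (C1qa, C1qb and C1qc), 2 of 4 markers of conventional dendritic cells, 3 of 6 of endothelium and 1 of 3 of NK cells. None of the 6 T cell, 4 plasmacytoid dendritic cell, 4 neutrophil, 5 adipocyte or 8 kidney epithelial markers was highest there. Adipocyte markers lay low on that array, at a median of -2.20 log2 units from the other arrays' median, as for Adipoq (0.217-fold), Cidec (0.191-fold) and Cfd (0.172-fold), but within the others' range. Their mean was -3.55 on HFD-UNX_1, and it ran from -2.44 to -0.21 on LFD-sham, -4.02 to -1.49 on LFD-UNX, -4.80 to -1.91 on HFD-sham and -3.55 to -0.96 on HFD-UNX. The mean level of the 4 B cell markers was -2.27 on HFD-UNX_1 and at most -2.39 on the others, and over groups it ran from -4.68 to -3.44 on LFD-sham, -4.29 to -3.90 on LFD-UNX, -3.16 to -2.45 on HFD-sham and -3.54 to -2.27 on HFD-UNX. Cd79a was well above background on only 6 arrays. The macrophage markers averaged 0.41 on HFD-UNX_1 and at most 0.40 on the others, with Adgre1, a general macrophage marker, highest on LFD-sham_4. Their mean ran from -0.22 to 0.25 on LFD-sham, -0.47 to 0.25 on LFD-UNX, -0.18 to 0.40 on HFD-sham and -0.28 to 0.41 on HFD-UNX. The endothelial markers averaged 0.72 on HFD-UNX_1 and at most 0.51 elsewhere. For diet, 5 of the 51 markers passed as higher and 4 as lower in sham mice, beside 6.82% and 6.99% of all genes. In mice with 1 kidney 10 and 2 passed, beside 7.89% and 6.11%. Of the 4 B cell markers 2 passed as higher in sham mice and 3 in mice with 1 kidney. The part of these cells in the members' levels was not tested.

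The members rose and fell with each other on HFD-UNX_1, and many of them, less closely, on the other arrays too. The within-group deviations of each member were correlated with the mean of the other members over 15 arrays, which share that array. Rtp4 (r = 0.98), Bst2 (0.97), Oasl2, Dhx58 and Xaf1 (each 0.96) followed the rest most closely, and Irf1 (0.30) and Iigp1 (0.36) least; r was above 0.5 for 32 of the 34, with a median of 0.88. Over the 14 arrays without HFD-UNX_1 r was above 0.5 for 20 of the 34, with a median of 0.59. Bst2 kept 0.95, Psmb9 0.89, Rtp4 0.82, Xaf1 0.81, Psmb8 0.80, Isg15 0.73 and Irf7 0.69. The lowest were Ifih1 (-0.01), Cmpk2 (0.04), Oas3 (0.06), Iigp1 (0.11) and Ifit3 (0.15).

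Outside the list, the 10 genes whose within-group deviations were most like the members' mean over 15 arrays were Apol9b (r = 0.96), Phf11d (0.95), Dtx3l (0.94), Apol9a (0.93), Gbp9, Tgtp1 and Lgals3bp (each 0.92), and Slfn8, Slfn2 and Ifi27 (each 0.91). All but Gbp9 were on the list of other interferon-stimulated genes. Without HFD-UNX_1 their r ran from 0.33 for Ifi27 to 0.78 for Gbp9. Over those 14 arrays other genes were more alike, led by Il10ra (0.94), a cytokine receptor chain of immune cells, Fcgr4 (0.93), a receptor for antibodies, and Asb2 (0.92). These correlations are descriptions over few arrays that share slides.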

How the data were processed

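Total RNA of 15 kidneys, 100 ng each, was read on Agilent arrays with a single dye (Cy3), per the labels' protocols. The intensity values are the authors' deposited Feature Extraction output (10.7 per the submitters' processing notes, 10.7.3.1 per the file headers), background-subtracted and not normalised between arrays; the deposited value table holds the same intensity values after rounding, with ratios of 0.9950 to 1.0050 to them and column medians of 56.7 to 251. The raw intensity and background columns deposited in the same files served 1 alternative. Control and outlier-marked spots were dropped (74 to 273 marked per array), the log2 intensity was reduced by the array's 75th percentile, spots of a probe were averaged, and a probe was kept if 3 or more arrays had it well above background (28244 probes). Names came from RefSeq accessions (27234 of 39429 probes matched), and the brightest probe stood for a gene. Of the 16055 genes, 43 had a missing value on some array.

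Groups were compared with limma 3.58.1 (R 4.3.3, lmFit and eBayes, 1 mean per group, two-sided) in 5 comparisons, with p-values adjusted over all genes within each; the fits were checked on simulated data. The arrays are separate mice by their labels. The members, lists and tests were chosen with earlier results of these data known. Named with every value are the 6 members of largest SD among those well above background on all arrays and every member past the threshold; Irf1 is shown for its non-overlap after its values were seen. Pathway genes past the threshold are named up to 4 a list, and some genes first put on the pathway and cell type lists are not reported here. Same-numbered mice of the 2 high-fat groups deviated together (r of 0.43, 0.12 and 0.33 over all genes). Those numbers were therefore taken as pairs from the data, not the labels, for 1 alternative. The mice numbered 1 shared slide 1 and those numbered 3 shared slide 2, while those numbered 2 lay on different slides. Pairing and a shared slide cannot be told apart here. Over all 21 pairs of same-numbered mice r ran from -0.15 to 0.43, with 5 above 0.1. No other pair of groups had every r above it. Alternatives were other normalisations and background corrections, dim filters, probe averaging, slide or replicate blocks, the compared groups alone, and leaving out each array.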

Additional observations from a re-analysis of the deposited data

Results flagged for a closer look

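Within groups of 4 arrays, 5 of 102 tests for a single array far from the rest (Dixon's test, which chance meets in about 1 of 20) met the critical value. Tap1, the peptide transporter, was low on LFD-UNX_1 at -3.58, with the other 3 LFD-UNX arrays between -2.78 and -2.77. Parp14 was low on the same array at -0.33, with the others at -0.06. Oas3 was high on the same array at -4.06, with the others between -5.45 and -5.27. Ifi44 was high on HFD-UNX_1 at -0.03, with the others between -1.01 and -0.93. Ifih1 was high on LFD-sham_4 at -0.56, with the others between -0.76 and -0.74. For Irf7, Isg15 and the other members tested in that group HFD-UNX_1 did not meet the value.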

How the results depend on the processing

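The average standing of each array over the members moved by less than the spread between arrays under all 7 other processings tried. For diet in sham mice the number of members past the threshold was 0, and 1 (Dhx58) with only the compared groups in the fit; with each array left out it ran from 0 to 1. For diet in mice with 1 kidney it was 1 (Iigp1) and became 0 with quantile normalisation, with normexp background correction, with the mean of a gene's probes and with slide as a random block; with each array left out it ran from 0 to 1, and Iigp1 was not the member past it without HFD-UNX_1 (Usp18) or HFD-UNX_4 (Dhx58). It was lost, with none past it, without any 1 of the 4 LFD-UNX arrays or without HFD-UNX_3. With slide as a fixed block 6 members passed in sham mice and 10 in mice with 1 kidney, all higher, beside 35.2% (2719 higher, 2930 lower) and 36.4% (2987 higher, 2861 lower) of all genes; since both high-fat slides hold no low-fat array, that fit reads the diet difference at the level of slide 1. Quantile normalisation turned the split of all genes called there from 1267 higher and 981 lower to 1142 and 1367; normexp left 125 and 193. With the replicate block 0 members passed in sham mice and 1 in mice with 1 kidney (Iigp1, adjusted p = 0.0417), and no call of a member changed. With the block in the high-fat groups alone, chosen after seeing the data, 0 members passed for surgery, with a median of 0.30. For uninephrectomy on the high-fat diet, leaving out HFD-UNX_1 moved the members' median to -0.19 and the Irf7 difference to -0.08; over all left-out arrays the latter ran from -0.08 to 1.31. The diet difference of Usp18 in mice with 1 kidney became 0.24 with slide as a fixed block, 0.01 without HFD-UNX_2 and 0.08 without HFD-UNX_4, within a range of -0.63 to 0.08 over all left-out arrays. Apart from the fixed block and the left-out arrays, whose construction is given, the cause was not tested. Signal over background limits Oas3, which was not well above it on 2 arrays.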
